A study of Homo sapiens with 12 samples.

Results

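RNA polymerase II does not run freely once it has started a gene. It halts a short way downstream of the start site, held there by NELF and DSIF, and is released when P-TEFb, the kinase CDK9 with a cyclin T, phosphorylates NELF, DSIF and the polymerase tail. P-TEFb is itself kept idle by HEXIM1 on the 7SK RNA, whose ends are guarded by MEPCE and LARP7, and is brought to genes in the super elongation complex. SPT6, the PAF1 complex (PAF1C), FACT, TFIIS and the kinases CDK12 and CDK13 with cyclin K then carry the polymerase through the gene. The study had followed the release of paused polymerase, which makes the genes of this machinery of interest in these libraries.

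The genes described here are 32 transcription elongation and pausing factors, listed by name from these complexes and looked up by symbol among the 22564 genes of the deposited table. All 32 were found, each with 1 row. The libraries were total RNA from A549, an established human lung adenocarcinoma line, transfected at 40 nM for 48 to 72 h with small interfering RNA against YTHDC1 (siYTHDC1, 6 libraries) or a scrambled control (siSCR, 6 libraries). YTHDC1 binds RNA in the nucleus where adenosine carries the m6A methyl group. All cells were of the same line and both groups were transfected, so there was no untransfected group, and the labels do not tie libraries to separate cultures. The value used for each gene was the authors' mean normalized count over all 12 libraries. This pooled mean holds both groups, has no spread over libraries, and does not give the depth of any library. It therefore describes how strongly each gene was represented in these cells, and siYTHDC1 and siSCR were not compared here. For the same reason the depletion of YTHDC1 could not be checked in each library, and its own mean of 232 stands for depleted and control cells together.

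The A549 label was checked against marker genes. All 11 epithelial and A549 markers had a row, with a median of 14802 normalized counts, led by the retinaldehyde dehydrogenase ALDH1A1 at 34836, KRT8 at 27600 and the aldo-keto reductase AKR1B10 at 24595. The lowest was EPCAM at 58.4. Of 4 alveolar markers AGER had a row (11.2), and SFTPC, SFTPB and NKX2-1 had none. CDKN2A, which A549 cells have lost, had no row. Among markers of other cell types, blood had 1 of 4 in the table (CD68, 2.62) and endothelium 1 of 3 (CDH5, 7.19), while stroma had 3 of 3 (COL1A1 at 194, ACTA2 at 93.5 and PDGFRB at 2.13).

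Every one of the 32 elongation genes lay above the median of all genes in the table, which was 65.8 normalized counts. Their own median was 835, above 84.5% of all genes and above 75.7% of the 14100 that were annotated as protein-coding. The range was wide, from 166 for ELL to 3442 for SUPT16H, a ratio of 20.7. In all, 13 genes were at 1000 or more and 6 were below 500. The 4 highest, SUPT16H, SUPT5H, SSRP1 and CDK12, held 32.8% of the counts of the group, and the group held 0.360% of the counts in the table. A longer gene collects more reads at the same number of molecules, so levels are set beside each other below per kilobase of exon. On that scale the median of the group was 163 normalized counts per kilobase, against 58.6 for protein-coding genes, and 29 of 32 were above that value, all but CDK13, LARP7 and ELL. The values of CDK13 and LARP7 depended on the gene length used, as given below.

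**Figure D1:**
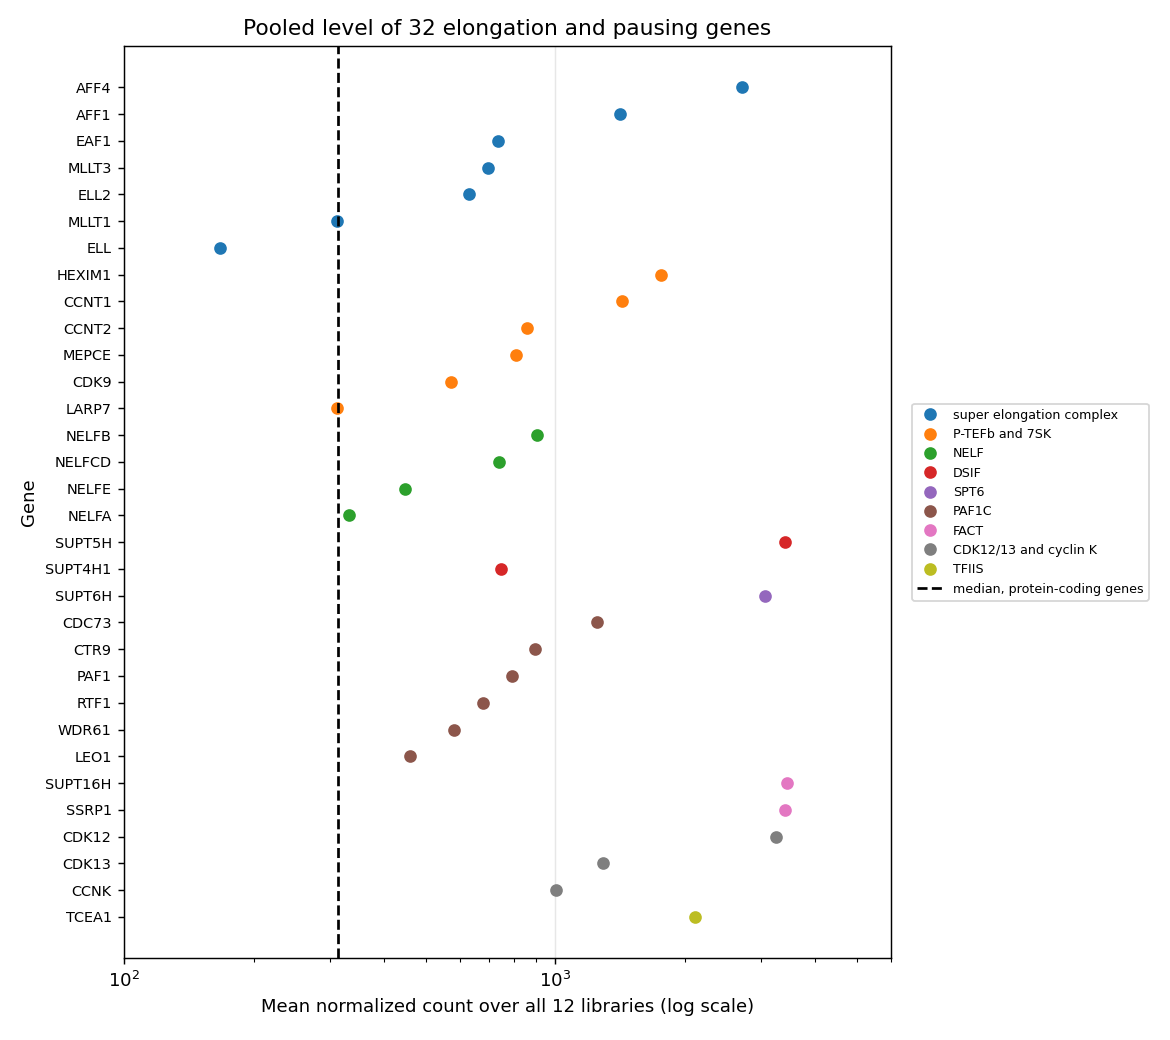
Pooled mean normalized count (x axis, log scale; all 12 libraries) of each of the 32 genes (y axis), 1 point per gene, coloured by complex, with no error bar because the value is a pooled mean. The dashed line is the median of protein-coding genes (313), with ELL, LARP7 and MLLT1 at or to the left of it and SUPT16H, SUPT5H, SSRP1 and CDK12 farthest to the right.

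The promoters of the group are shown next, because 1 gene stood apart from the others there and also in its gene structure. Promoter windows of 300 bases, 250 before the start and 50 after it, came from RefSeq (GRCh38.p14) and were matched by symbol. Windows of 28 of the 32 genes were used, 35 in all since 6 genes had several. ELL2, CDC73 and WDR61 had no window. TCEA1 was not used because member windows on chromosome 8, where it lies, were left out. The protein-coding windows and the set of all windows, used for comparison below, were not limited in this way. Short motifs were searched on both strands. The GC box GGGCGG, a site of the SP1 family, was found in 28 of 35 windows (80.0%), against 56.3% of 22199 windows of protein-coding genes and 45.0% of all 35116. The ETS-type motif CCGGAAG was found in 9 windows (25.7%, against 12.8% of protein-coding windows) and the CCAAT box in 13 (37.1%, against 34.7%). The E box CACGTG was found in 5 windows (14.3%, against 8.3%), the NRF1-type motif GCATGCGC in 7 of 35 (against 3.7%), and the YY1-type motif AAGATGGCG in 4 windows of NELFA, ELL and SUPT5H (11.4%, against 2.4%). The TATA box TATAAA was found in 1 window, that of HEXIM1 (2.9%, against 9.5%). The NRF1-type and YY1-type motifs were shortened after a first search, and more windows matched the shorter forms. The forms of these motifs were thus not set independently of these windows. No motif contains another, and windows of the same gene can overlap each other. GC content had a median of 66.3% in the group (62.3% in protein-coding windows), and 31 of 35 windows held more CpG pairs than the protein-coding median of 21. The protein-coding windows were not limited to genes found in these cells, whereas all members were. Whether these shares differ from those of other expressed genes was not tested. A match is a description of the letters and not a measured binding site.

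**Figure D2:**
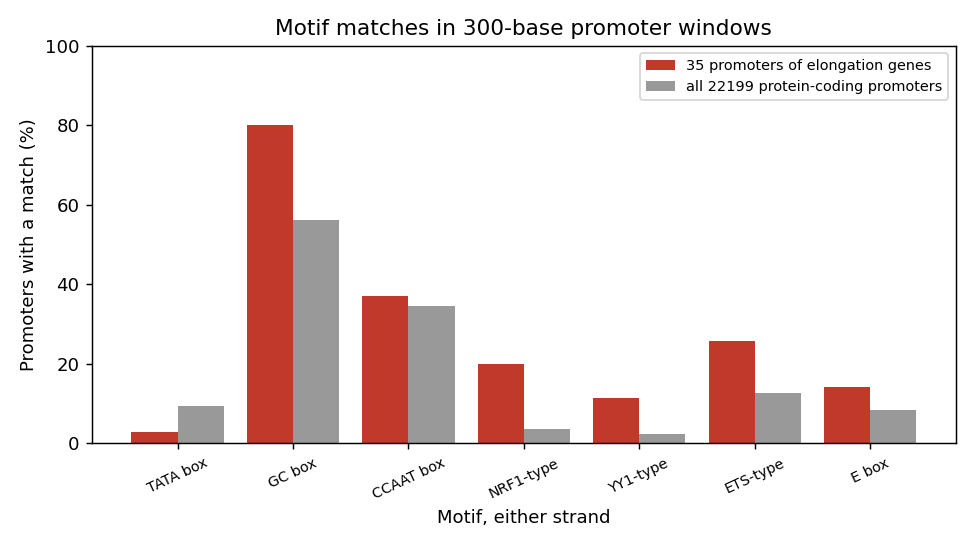
Share of 300-base promoter windows with at least 1 match on either strand (y axis, percent) for 7 motifs (x axis), in the 35 windows of the elongation genes (red) and in all 22199 windows of protein-coding genes (grey). GC box matches were found in 80.0% of the red windows against 56.3% of the grey ones, and TATA box matches in 2.9% against 9.5%. The NRF1-type and YY1-type motifs were shortened after a first search.

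The 150 bases just before the start are given for HEXIM1, the gene with the TATA box, for NELFB, whose window held the most GC boxes (9), and for SSRP1 and SUPT16H, both subunits of FACT, chosen as the highest of the group per kilobase of the union of exons, whose windows held no GC box. Sequences run 5′ to 3′ on the strand of the gene, and capitals mark whole matches of all these motifs but the E box and the YY1-type motif, in either orientation. The TATAAA of HEXIM1 began 29 bases before the start.
HEXIM1 (chr17:45148325-45148474, plus strand, GRCh38.p14): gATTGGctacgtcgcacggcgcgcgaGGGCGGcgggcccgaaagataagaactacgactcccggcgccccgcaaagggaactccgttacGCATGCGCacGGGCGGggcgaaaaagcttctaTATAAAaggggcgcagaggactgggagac
NELFB (chr9:137255177-137255326, plus strand, GRCh38.p14): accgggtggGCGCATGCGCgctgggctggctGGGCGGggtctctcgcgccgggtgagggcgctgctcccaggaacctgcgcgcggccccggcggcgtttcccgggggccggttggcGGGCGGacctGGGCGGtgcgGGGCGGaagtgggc
SSRP1 (chr11:57335893-57336042, minus strand, GRCh38.p14): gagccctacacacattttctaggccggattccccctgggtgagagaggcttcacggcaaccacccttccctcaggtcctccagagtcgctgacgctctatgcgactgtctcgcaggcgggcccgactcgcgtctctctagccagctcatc
SUPT16H (chr14:21384020-21384169, minus strand, GRCh38.p14): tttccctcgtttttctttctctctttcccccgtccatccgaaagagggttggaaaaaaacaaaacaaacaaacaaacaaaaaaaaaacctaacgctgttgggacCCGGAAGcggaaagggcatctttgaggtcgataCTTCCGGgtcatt
SUPT16H held 2 ETS-type matches facing each other, 46 and 13 bases before the start. SSRP1 had no match in the printed stretch, and its ETS-type match lay 22 bases after the start.

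The machinery that holds the polymerase was compared first. DSIF binds the polymerase as a pair of SPT4 and SPT5. SUPT5H, the gene of SPT5, was at 3415 normalized counts and SUPT4H1, the gene of the small subunit SPT4, at 748. Per kilobase the pair came close, at 399 for SUPT5H (chromosome 19, 39926796 to 39967310, plus strand, GRCh37) and 360 for SUPT4H1, a ratio of 1.11. That ratio is uncertain, because 89.9% of the annotated exon bases of SUPT4H1 are shared with other genes, among them TSPOAP1-AS1 on the opposite strand (12.1 normalized counts) and, over 63.7%, a protein-coding gene model on the same strand that had no row. The overlaps come from GENCODE 44, while reads were counted on GENCODE 19, and how reads on shared bases were counted was not stated. Overlap was therefore tried only by taking shared bases off the length, with the deposited count unchanged. With those of the same strand taken off, SUPT5H was 0.402 times SUPT4H1, and with those of either strand 0.112 times. These need not be levels on the unshared bases, and no order can be given.

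NELF, which makes the polymerase halt, has 4 subunits. NELFB, which links the complex together, was highest at 907 normalized counts, followed by NELFCD at 738, the RNA-binding NELFE at 449 and NELFA at 332. Per kilobase the values were 357 for NELFB, 170 for NELFE, 117 for NELFCD and 65.7 for NELFA, so the highest was 5.44 times the lowest. The order turned with the length. With only the exons of transcripts tagged basic in the annotation, which leaves out partial models, NELFCD (321) was above NELFE (270.0) and the spread was 2.65. On the median transcript NELFB (357) was the lowest of the 4 and NELFCD (525) the highest. NELFCD lies opposite CTSZ, the gene of cathepsin Z, at 640 normalized counts. In the annotation used here, which is later than the one used for counting, 97.4% of the exon bases of NELFCD are also exon of CTSZ on the other strand. Whether strand was used in counting was not stated, nor how reads on shared bases were counted. It is therefore not known whether reads of the pair were told apart.

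P-TEFb and its inhibitors came next. CDK9 (chromosome 9, 130547958 to 130553071, plus strand), the kinase that releases the paused polymerase, was at 573 normalized counts. Its cyclin partners were at 1424 for CCNT1 and 859 for CCNT2. Per kilobase CDK9 was at 191, CCNT1 at 193 and CCNT2 at 94.6. Thus CCNT1 was 2.04 times CCNT2, and both cyclins together were 1.51 times the kinase. With the median transcript length, CCNT1 was 0.631 times CCNT2 and HEXIM1, described next, 0.595 times CDK9, so these 2 orders depend on the length.

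HEXIM1, the inhibitor that locks P-TEFb on 7SK, was the highest of this set at 1761 normalized counts and 486 per kilobase, 2.55 times CDK9 and above 95.1% of protein-coding genes. Its place per kilobase depended on the length: on the median transcript CCNT2 (1120), CDK9 (817) and CCNT1 (706) were above it, and with shared bases of the same strand taken off the length MEPCE was above it (621 against 486). MEPCE, which caps the 5′ end of 7SK, was at 811 (240 per kilobase), and LARP7, which binds its 3′ end, at 311 (38.4 per kilobase). Per kilobase HEXIM1 was thus 12.7 times LARP7, which was the lowest of the 32 genes but ELL. The length behind the LARP7 value is large, since 39 transcripts are annotated for the gene. HEXIM1 has 1 annotated transcript, so its length was the same on the union, longest, median and basic settings. On basic transcripts alone LARP7 was at 89.9 and the highest of the set was 5.40 times the lowest. Of the MEPCE exons, 61.3% are shared with another protein-coding gene model on the same strand that had no row in the table.

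HEXIM1 differed from the other 31 genes in structure as well: its gene (chromosome 17, 43225842 to 43229466, plus strand, GRCh37) is a single exon, so that 100% of its span is exon, while in the others the canonical transcript has 4 to 37 exons. Its transcript was also the richest of the group in GGACT, the most common form of the m6A consensus. In the longest coding transcript of each gene, HEXIM1 held 12 matches in 3625 bases, or 3.31 per kilobase, above 99.2% of 14048 genes. Of these matches 7 lay before the coding sequence, 1 within it and 4 after it. The match in the coding sequence and the match nearest to the start of the transcript are given with 8 bases on either side, the motif in capitals, on the plus strand of GRCh37.
HEXIM1 coding match (chr17:43227344-43227364): ctgcagcgGGACTtctcggag
HEXIM1 first match (chr17:43226086-43226106): tggcgccgGGACTttaacccc

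WDR61 followed with 4 matches in 1266 bases (3.16 per kilobase), then SSRP1 (1.77) and CDK9 (1.61). LEO1 and TCEA1 had none. As a group the elongation genes were near the rest, with a median of 0.889 matches per kilobase against 0.933 for all 14048 genes, and 15 of 32 lay above that value. These are counts of letters in the reference transcript. No methylation was measured in these libraries.

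**Figure D3:**
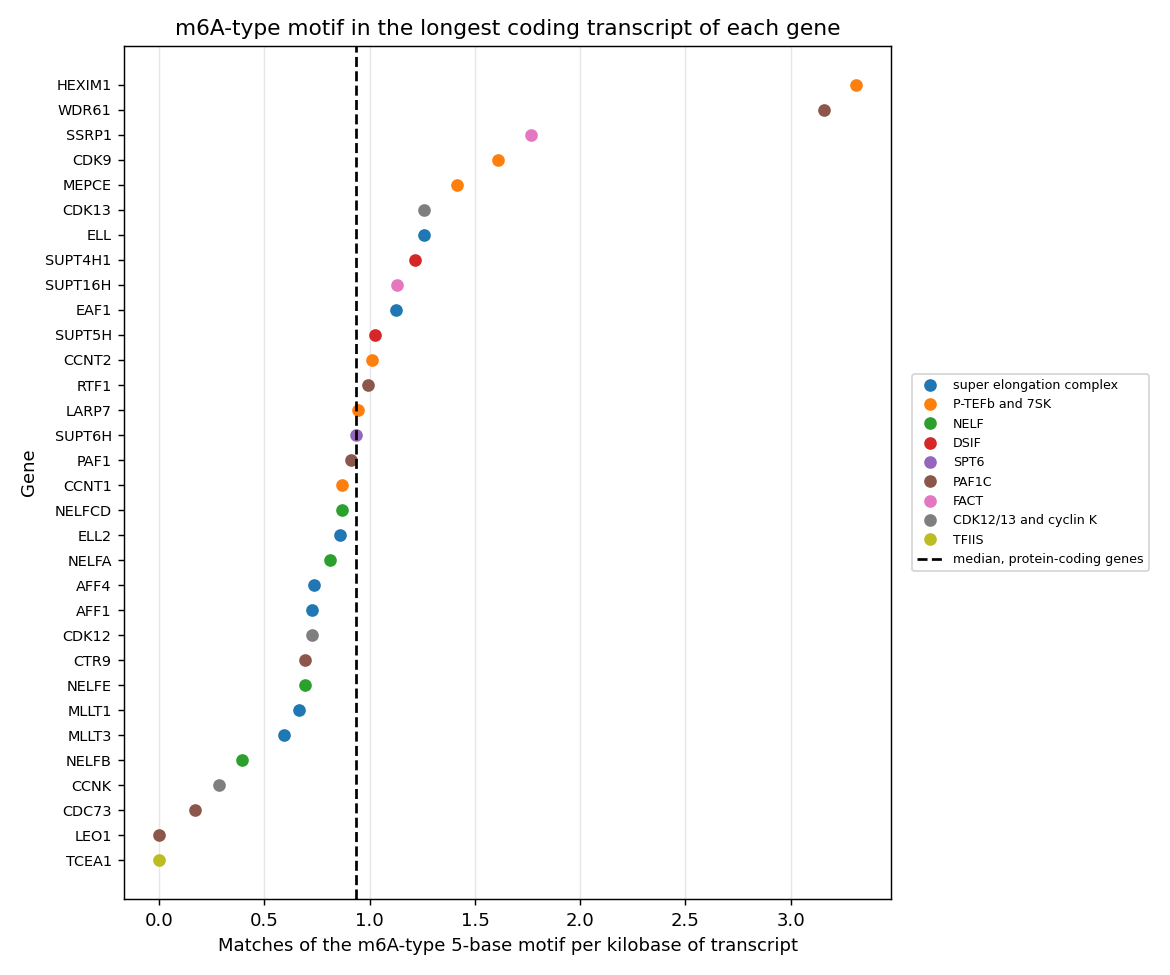
Matches of the 5-base m6A-type motif per kilobase (x axis) in the longest coding transcript of each of the 32 genes (y axis), coloured by complex. The dashed line is the median over 14048 genes (0.933), and HEXIM1 (3.31) and WDR61 (3.16) lie far to the right of the others.

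The super elongation complex gathers P-TEFb on a flexible AFF scaffold. Of the scaffolds, AFF4 (chromosome 5, 132211087 to 132299326, minus strand) was at 2703 normalized counts and AFF1 at 1416, or 240 and 129 per kilobase, a ratio of 1.85 in favour of AFF4. AFF2 and AFF3, paralogs of the same family, had no row. Of the ELL elongation factors, ELL2 was at 630 and ELL (chromosome 19, 18553473 to 18632926, minus strand) at 166. ELL was the lowest of all 32 genes on both scales, at 33.8 per kilobase against 88.7 for ELL2, a ratio of 2.62, and ELL3 had no row. EAF1, a partner of the ELL proteins, was at 737 (150 per kilobase), while its paralog EAF2, also an ELL partner, was at 32.5 (18.4 per kilobase). The YEATS-domain readers of acylated histones were at 697 for MLLT3 and 312 for MLLT1, or 86.2 and 65.4 per kilobase, a ratio of 1.32. AFF4, ELL2 and MLLT3 were above AFF1, ELL and MLLT1 under every gene length tried. However, AFF1, AFF4, ELL2, MLLT1 and MLLT3 share no exon bases with other genes, so taking off shared bases left their lengths unchanged. Within the complex the highest gene, AFF4, was 7.08 times the lowest, ELL.

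The factors that travel with the polymerase included the highest levels. Both subunits of FACT, the chaperone that takes histones off and puts them back around a passing polymerase, were nearly level, with SUPT16H (chromosome 14, 21819635 to 21852178, minus strand) at 3442 and SSRP1 (chromosome 11, 57093460 to 57103366, minus strand) at 3403 normalized counts. Per kilobase of the union of exons SSRP1 was at 537 and SUPT16H at 499, the first and second of the 32 genes on that length and above 95.9% and 95.3% of protein-coding genes. The first gene was another under 4 of the 5 other lengths: SUPT5H on the longest and median transcripts, and SUPT4H1 and NELFCD when shared bases of the same strand or of either strand were taken off the length. Which of them was higher changed with the gene length, from 0.696 to 1.83 times, so no order can be given. SUPT6H, the gene of the histone chaperone SPT6, was at 3058 (291 per kilobase). TCEA1, which encodes TFIIS and lets a backtracked polymerase restart, was at 2110 (490 per kilobase). The pseudogenes TCEA1P2 and TCEA1P4 were at 57.7 and 27.3, which is 2.74% and 1.30% of TCEA1, and reads could be shared between such copies. The paralogs TCEA2 and TCEA3, singled out here after their values were seen, were at 192 and 10.1.

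PAF1C links the elongating polymerase to histone modification. CDC73, the gene of parafibromin, was at 1246, the scaffold CTR9 at 897, PAF1 at 794, RTF1 at 679, WDR61 at 583 and LEO1 at 461, so that the highest was 2.70 times the lowest. Per kilobase the order changed, with PAF1 at 279, LEO1 at 174, CTR9 at 156, CDC73 at 119, RTF1 at 118 and WDR61 at 81.2. CDC73 and RTF1 were next to each other in this order. The value of WDR61, also known as SKI8 and shared with a complex that feeds RNA into the exosome, was 459 on basic transcripts, where it was the highest of the complex.

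CDK12 and CDK13 phosphorylate the polymerase tail during elongation, both with cyclin K. CDK12 (chromosome 17, 37617739 to 37723812, plus strand) was at 3255 normalized counts, CDK13 at 1291 and CCNK, the gene of cyclin K, at 1002. Per kilobase CDK12 was at 251, CCNK at 122 and CDK13 at 52.1. The union of exons of CDK13 is long, at 24780 bases. On the longest transcript CDK13 was at 136 per kilobase and on basic transcripts at 134. CDK12 was 4.81 times CDK13 on the union of exons and 2.52 times by count, and above it under every length tried. These kinases share no exon bases with other genes, so taking off shared bases left their lengths unchanged. Both kinases together were 2.48 times the cyclin. Of the CCNK exon bases 59.5% are also exon of CCDC85C on the opposite strand (1001 normalized counts). With the shared bases taken off the lengths but the deposited counts unchanged, the ratio of both kinases to the cyclin was 1.01. That ratio need not hold for the unshared bases.

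**Figure D4:**
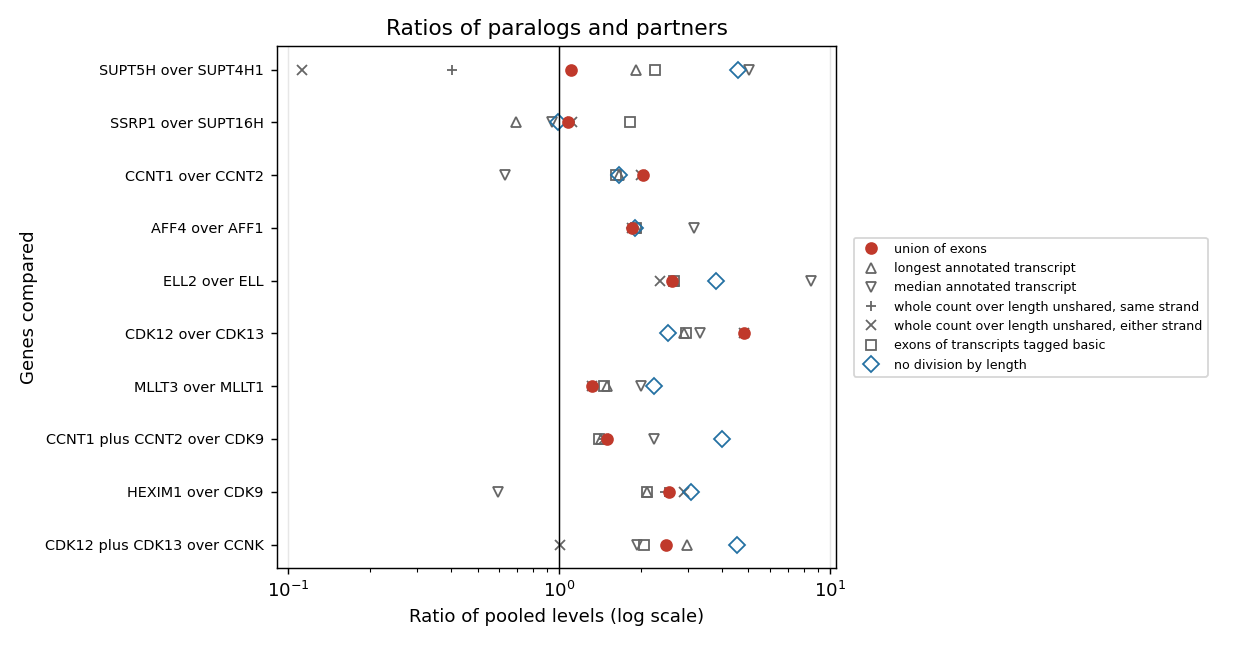
Ratio of pooled levels (x axis, log scale, with a line at 1) for 10 sets of paralogs or partners (y axis), from levels per kilobase of the union of exons (red), with no division by length (blue) and under 5 other gene lengths (grey). AFF4, ELL2, CDK12 and MLLT3 lie to the right of 1 under every setting. For the AFF4, CDK12 and MLLT3 ratios the settings that take off shared bases equal the union. SUPT5H over SUPT4H1, SSRP1 over SUPT16H, CCNT1 over CCNT2 and HEXIM1 over CDK9 lie on both sides.

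The order of the 32 genes per kilobase of the union of exons was led by SSRP1, SUPT16H, TCEA1, HEXIM1, SUPT5H, SUPT4H1 and NELFB, and closed by NELFA, MLLT1, CDK13, LARP7 and ELL. Neighbours in this order cannot be said to differ, since the pooled means have no spread. Gene overlap may bear on it: in the annotation used here, 20 of the 32 genes share exon bases with another gene, and 7 share more than 10% of them. The 7 were NELFCD, SUPT4H1, MEPCE, CCNK, EAF1 (40.0%), LARP7 (16.3%) and HEXIM1 (14.3%).

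**Figure D5:**
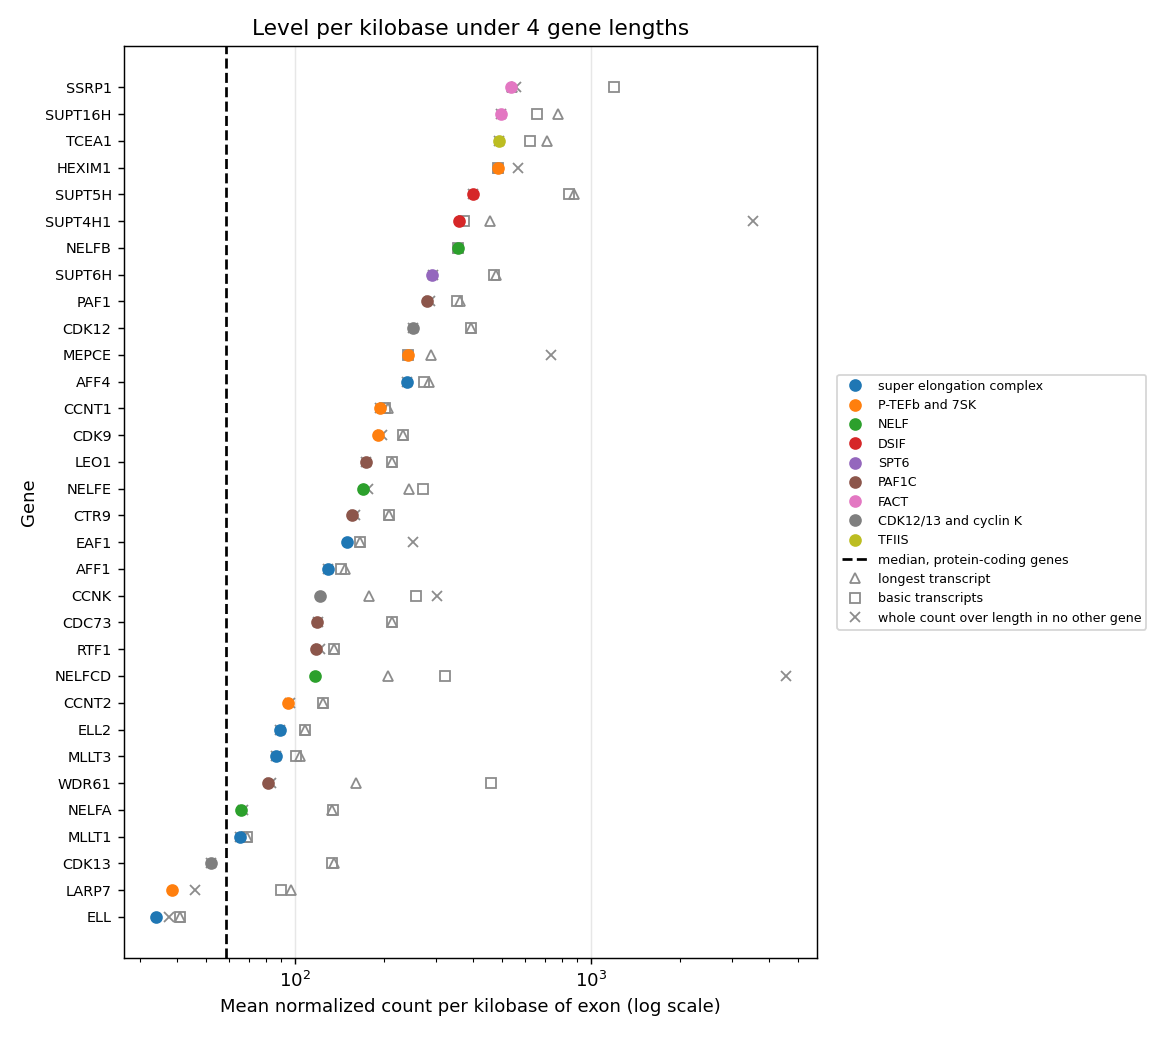
Mean normalized count per kilobase of exon (x axis, log scale) for the 32 genes (y axis, in order), with coloured points for the union of exons and grey symbols for 3 other gene lengths. The dashed line is the median of protein-coding genes (58.6). It was taken on the union of exons only, so the grey symbols cannot be read against it. ELL stays at or near the left end under all of these lengths, while NELFCD and SUPT4H1 move far to the right when shared bases are taken off the length, which shrinks the divisor while the count stays whole.

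A further 33 genes of the same process were looked up, and 30 had a row. Their median was 109 normalized counts per kilobase, against 163 for the 32 elongation and pausing genes. The highest were POLR2A, which encodes the largest subunit of RNA polymerase II (541 per kilobase), INTS1 of the Integrator complex (326), KIAA0947, the gene of the little elongation complex scaffold ICE1 (257), and INTS10 (204). The lowest per kilobase were TCEA3 (2.74), EAF2 (18.4), INTS6 (31.9) and INTS4 (37.9). By count INTS6 was at 813 and INTS4 at 490, against 10.1 for TCEA3 and 32.5 for EAF2. The low places of INTS6 and INTS4 thus rest on the division by length, and other lengths were not tried for these genes. POLR2A by count (4516) was above every one of the 32 genes, and per kilobase it was close to SSRP1. HEXIM2, singled out after its value was seen as the paralog of HEXIM1, was at 96.0 normalized counts, or 47.8 per kilobase.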

How the data were processed

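The labels name DNase treatment, removal of ribosomal RNA and a stranded total RNA kit. The authors used STAR on hg19, HTSeq with GENCODE 19 for counting, and DESeq2 with a term for sequencing batch. Whether counting used strand was not stated. The deposited table has 1 row per gene. The value used here is the deposited signal, which the authors took as the mean of normalized counts of all 12 libraries. The other 5 value columns hold the authors' own comparison (log2 fold change, its error, statistic and p-values) and were not used, so no test was run and depth is unknown. The lowest mean in the table was 1.52.

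Gene IDs were matched without version to GENCODE 44 mapped to GRCh37, the same build (21798 rows, 96.6%). Levels were divided by the union of annotated exons, which can differ from the authors' release. Promoter windows (RefSeq, GRCh38.p14) were read in the direction of the gene: in 34 of 35, bases after the start were found in a transcript of that gene. All 32 members are named, with YTHDC1, the markers (in part as counts), and the 4 highest and 4 lowest other elongation genes. The members and lists were chosen with earlier results of these data known. The motifs and the printed sequences were chosen after the levels had been seen, and the NRF1-type and YY1-type motifs were shortened after a first search, with which more windows matched. Interval and rank steps were tested on simulated data. Python 3.11.15 and matplotlib 3.10.9 were used.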

Additional observations from a re-analysis of the deposited data

How the results depend on the processing

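No paired analysis was possible because the values are pooled means and no test was run. With no spread, a value was taken as moved when it changed by over 1.5 times. Of the 32 levels per kilobase, 10 moved on the longest transcript, 29 on the median transcript and 12 on basic transcripts. With shared bases taken off the length, 2 moved for the same strand and 5 for either strand. All of these moved upward, since no other length exceeds the union of exons. Above 84.5% of all genes, the median of the group was above 78.3% of the 16083 genes with at least 10 normalized counts. Counted over all rows of a symbol, no level changed, since each gene had 1 row.

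SUPT5H over SUPT4H1 (1.11) turned to 0.402 with bases shared on the same strand taken off the length and 0.112 with those of either strand taken off (counts stay whole in both), and was 1.92 on the longest transcript, 5.01 on the median transcript, 2.26 on basic transcripts (a setting chosen after seeing the data) and 4.56 by count. SSRP1 over SUPT16H (1.08) turned to 0.696 on the longest transcript, 0.940 on the median transcript and 0.989 by count, and was 1.83 on basic transcripts. On the median transcript, CCNT1 over CCNT2 turned to 0.631 and HEXIM1 over CDK9 to 0.595, while AFF4 over AFF1 was 3.15, ELL2 over ELL 8.50 and MLLT3 over MLLT1 2.01. CDK12 over CDK13 was 2.90 on the longest and 2.94 on basic transcripts and 2.52 by count. By count, MLLT3 over MLLT1 was 2.24, both cyclins T over CDK9 3.98 and both kinases over CCNK 4.53, which was 1.01 with bases shared on either strand taken off the length.

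The spread within NELF (5.44) was 2.68 on the longest, 1.47 on the median and 2.65 on basic transcripts, 68.1 with bases shared on either strand taken off the length and 2.73 by count. Within PAF1C (3.43) it was 6.02 on the median transcript, and within the super elongation complex (7.08) it was 22.4 there and 16.2 by count. Within P-TEFb and 7SK (12.7) it was 5.01 on the longest, 7.48 on the median and 5.40 on basic transcripts and 5.67 by count. Median lengths include many partial models.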
